A study of Mus musculus with 6 samples.

Results

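The clustered protocadherins are cell surface adhesion proteins of neurons, encoded by 3 neighbouring gene clusters called alpha, beta and gamma. They were described here in hippocampal RNA from 3 wildtype mice and 3 mice labelled as knockout of the miR-17-92 microRNA cluster (miR17-92 knockout). All were of strain C57BL/6, aged 13 weeks and each from a different litter. Members were all protein-coding genes whose symbol carries the prefix of a clustered protocadherin and a number, taken from the GENCODE M21 annotation. That rule uses no measured value, but it and the gene lists below were set with earlier results of these data known. That annotation holds 57 such genes, of which 14 are alpha, 22 beta and 21 gamma. The tables of the 6 libraries give 37620 gene identifiers, and 24 of the 57 are among them. These 24 are all 22 beta genes, 1 alpha identifier (ENSMUSG00000007440, named Pcdha11 in M21) and 1 gamma identifier (ENSMUSG00000023036, named Pcdhgc4). The other 13 alpha and 20 gamma genes have identifiers numbered above the highest one in the tables and were not analysed here. The sources used here do not give which cells lost the microRNA cluster, how the deletion was made or the sex of the mice.

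In each cluster a neuron is known to switch on a few members out of a tandem array, each with its own promoter, so that neighbouring neurons carry different sets of surface proteins. Promoter choice runs through CTCF and cohesin, which bring a chosen promoter to a distant enhancer, and through DNA methylation of the promoters left silent. The proteins bind like proteins on other cells, and in the brain they are known for the self-avoidance of dendrites and axons, for axon tiling and for neuron survival. An alpha or gamma variable exon is spliced to constant exons that every member of its cluster shares, whereas a beta gene is a single large exon that ends by itself. The M21 models show this build. All 14 alpha models shared 3 exon intervals of 2860 bases, all 21 gamma models shared 3 intervals of 2116 bases, and the 22 beta models shared 0 bases. The median number of exon bases found in only 1 model was 2494 for alpha, 2637 for gamma and 3714 for beta. Reads that fall in constant exons therefore cannot be given to any 1 alpha or gamma gene.

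The deleted cluster makes 6 mature microRNAs in 4 seed families. They are shown because the sites searched in the protocadherin transcripts are the complements of these seeds. The sequences are RefSeq's, on the plus strand of chromosome 14 in GRCm38.p6, from chr14:115043684-115043706 for miR-17-5p to chr14:115044476-115044496 for miR-92a-3p. Capitals mark the seed, bases 2 to 8.
mmu-miR-17-5p: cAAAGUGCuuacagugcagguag
mmu-miR-20a-5p: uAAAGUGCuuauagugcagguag
mmu-miR-18a-5p: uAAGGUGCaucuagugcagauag
mmu-miR-19a-3p: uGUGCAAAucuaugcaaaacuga
mmu-miR-19b-3p: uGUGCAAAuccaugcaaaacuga
mmu-miR-92a-3p: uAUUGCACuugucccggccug
The seeds of miR-17-5p and miR-20a-5p are identical, as are those of miR-19a-3p and miR-19b-3p.

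Reads assigned to genes numbered 40100762, 43588323 and 31731263 in wildtype 1, 2 and 3, and 32284831, 26439693 and 57246827 in knockout 1, 2 and 3. Knockout 3 was thus the deepest library and knockout 2 the shallowest. The host gene of the deleted cluster, Mir17hg, held 43, 47 and 36 reads in the wildtype libraries and 30, 35 and 37 in the knockout libraries (log2 fold change −0.22, SE 0.28, edgeR adjusted p = 0.813). The rows of the cluster's 6 hairpins held 0 reads in every library. Which part of the host gene was removed is not given, so these rows do not check the labels. Levels are given as CPM, read counts scaled to the library's total after TMM (trimmed mean) scaling, as edgeR gives them. Markers of neurons in general were abundant, with a summed level of 6630 to 7060 CPM in wildtype and 7240 to 7400 CPM in knockout libraries. All samples are whole tissue, where fewer cells of a type and less RNA per cell cannot be told apart.

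The alpha and gamma identifiers were read far more deeply than any beta gene. The alpha identifier stood at 195.7, 189.8 and 197.3 CPM in wildtype 1, 2 and 3 and at 204.3, 196.5 and 198.5 CPM in knockout 1, 2 and 3. The genotypes overlapped, and the 6 libraries lay within 1.08-fold of each other. The gamma identifier stood at 686.9, 684.8 and 641.1 CPM in wildtype and at 673.3, 639.2 and 631.1 CPM in knockout libraries, again overlapping and within 1.09-fold. The 22 beta genes summed to 182.8, 168.7 and 189.2 CPM in wildtype and to 200.5, 198.0 and 180.0 CPM in knockout libraries. Within a library the gamma row was 3.18 to 3.61 times the alpha row and 3.23 to 4.06 times the beta sum, while the beta sum was 0.889 to 1.01 times the alpha row. Gamma was the highest in all 6 libraries, and alpha and the beta sum lay close to each other.

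**Figure D1:**
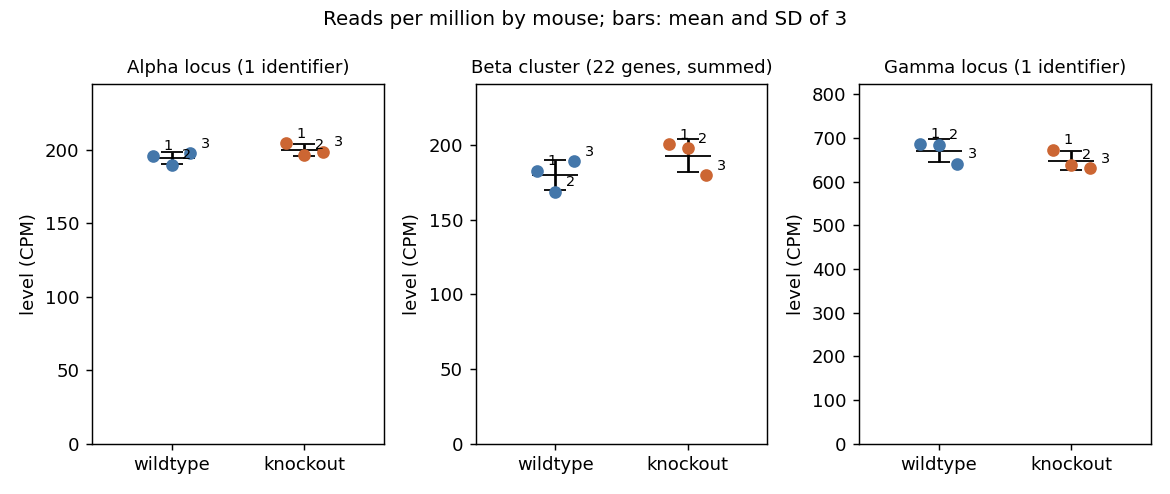
Level of the alpha identifier, the sum of the 22 beta genes and the gamma identifier in each library, in CPM on axes that start at 0, with wildtype and knockout mice apart, replicate numbers beside the points and bars for the group mean and SD (n = 3). The genotypes overlap in all 3 panels, and gamma lies above 630 CPM in every library while alpha and beta lie near 200 CPM.

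The sources used here do not give which exons the authors' annotation gave to the single alpha and gamma identifiers, and the 2 possible readings give different levels per kb. Over the exons that M21 gives these identifiers (5359 bases for alpha and 5596 for gamma), alpha came to 36.8 and gamma to 118 CPM per kb. Over all exons of each cluster in M21 (40755 bases for alpha and 68392 for gamma), alpha came to 4.83 and gamma to 9.64 CPM per kb. The mean beta level was 2.02 CPM per kb over the 92227 exon bases of that cluster. Gamma stood above alpha and alpha above beta per kb on both readings, but the ratios differ several-fold, and neither row is read here as the level of 1 isoform. The share of 50-base words also found in another gene was 60.1% for the alpha identifier and 37.1% for the gamma identifier, against 0% to 11.3% for the beta genes except Pcdhb12. Pcdhb12 overlaps another gene model and had 64.2%, but that model has no row of counts. The gene models that overlap the alpha and gamma identifiers have no row of counts either. Pcdhb21 and Pcdhb22 share 455 exon bases, so their reads cannot be fully told apart.

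Beta levels differed widely from gene to gene. Per kb of exon that no other gene in the tables shares, Pcdhb9 was the highest, with a mean of 4.33 CPM per kb and a range of 2.80 to 5.53 over the 6 libraries. Pcdhb7 followed with 3.66 (2.83 to 5.16), Pcdhb17 with 3.53 (2.98 to 3.95) and Pcdhb20 with 3.14 CPM per kb (2.68 to 3.88). These 4 ranges overlapped one another, and the order of the genes within each library was not tested. At the other end Pcdhb14 had 1.09 CPM per kb (0.941 to 1.38) and Pcdhb8 0.918 (0.781 to 1.15), again overlapping. Pcdhb14 has 8695 exon bases in M21, with a 3′ UTR of 6117. Not scaled by length, its group means were 8.86 CPM in wildtype and 10.1 CPM in knockout, against 2.93 and 3.46 CPM for Pcdhb8. The order per kb rests on M21 exon lengths, and those of the authors' annotation are not given. Pcdhb1 was the lowest, at 0.174 CPM per kb (0.0962 to 0.27), and its range lay below that of every other beta gene. Its reads numbered 28, 20 and 11 in wildtype and 8, 14 and 24 in knockout libraries, few enough that counting error alone is large. Pcdhb1 lies at the start of the array and is set apart from the rest in GRCm38 by the second widest gap between neighbouring beta genes.

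**Figure D2:**
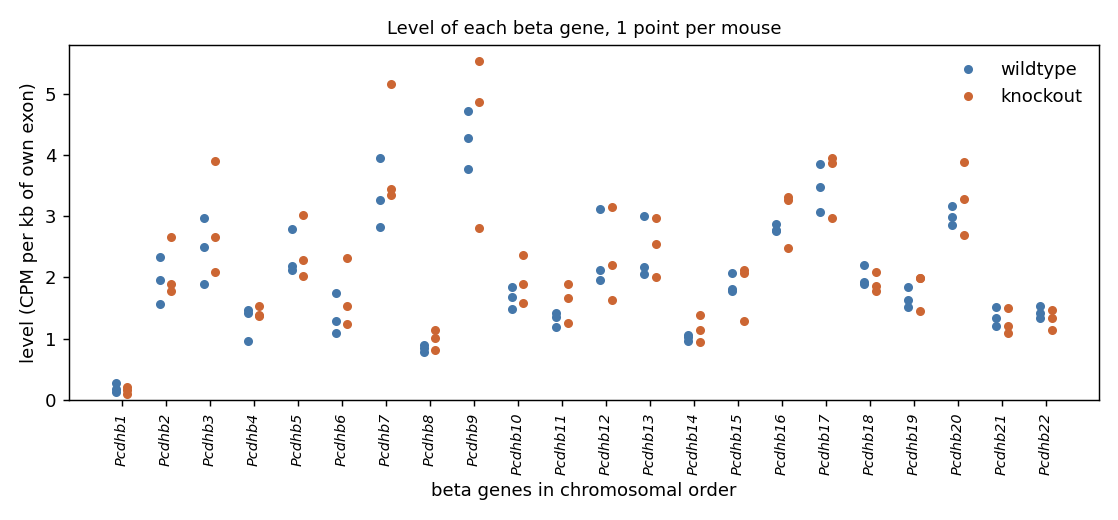
Level of each of the 22 beta genes in CPM per kb of exon not shared with another gene in the tables, in their order along the chromosome, with 1 point per library coloured by genotype. The points of a gene spread over up to 2.11-fold apart from Pcdhb1, and Pcdhb1 lies below all others.

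The beta genes varied between mice in a pattern along the array that the mice of a genotype did not share. Knockout 3 was the highest of the 6 libraries for 7 of the 7 genes from Pcdhb2 to Pcdhb8, and the lowest for 12 of the 14 genes from Pcdhb9 to Pcdhb22. Pcdhb3 stood at 11.2, 7.18 and 9.45 CPM in wildtype and at 7.90, 10.1 and 14.7 CPM in knockout libraries. Pcdhb7 stood at 13.8, 9.90 and 11.4 CPM in wildtype and at 11.7, 12.04 and 18.1 CPM in knockout libraries. In both genes knockout 3 was the highest and wildtype 2 the lowest. Pcdhb9, the next gene along the array after Pcdhb8, showed the reverse order for knockout 3, with 11.5, 13.1 and 14.4 CPM in wildtype and 16.9, 14.9 and 8.55 CPM in knockout libraries. Pcdhb15 stood at 4.98, 5.05 and 5.81 CPM in wildtype and at 5.82, 5.96 and 3.63 CPM in knockout libraries, with knockout 3 again alone at the bottom. Pcdhb19 stood at 11.7, 10.8 and 13.1 CPM in wildtype and at 14.15, 14.2 and 10.4 CPM in knockout libraries, with the lowest value once more in knockout 3 and the 2 highest in knockout 1 and 2. The exceptions in the second stretch were Pcdhb10, lowest in wildtype 2, and Pcdhb11, lowest in wildtype 1.

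The split between Pcdhb8 and Pcdhb9 was chosen after the values were seen, so no test is given for it. It falls at the widest gap between neighbouring beta genes in GRCm38. On the log2 scale against each gene's mean over the 6 libraries, the median of Pcdhb2 to Pcdhb8 was 0.41 in knockout 3 and −0.36 in wildtype 2. The median of Pcdhb9 to Pcdhb22 was −0.24 in knockout 3, 0.19 in knockout 1 and 0.17 in knockout 2. Wildtype 1 showed a weaker form of the pattern of knockout 3, with medians of 0.20 in the first stretch and −0.08 in the second. Knockout 3 was above the gene's own mean for 7 of 7 genes of the first stretch and for 0 of 14 of the second.

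**Figure D3:**
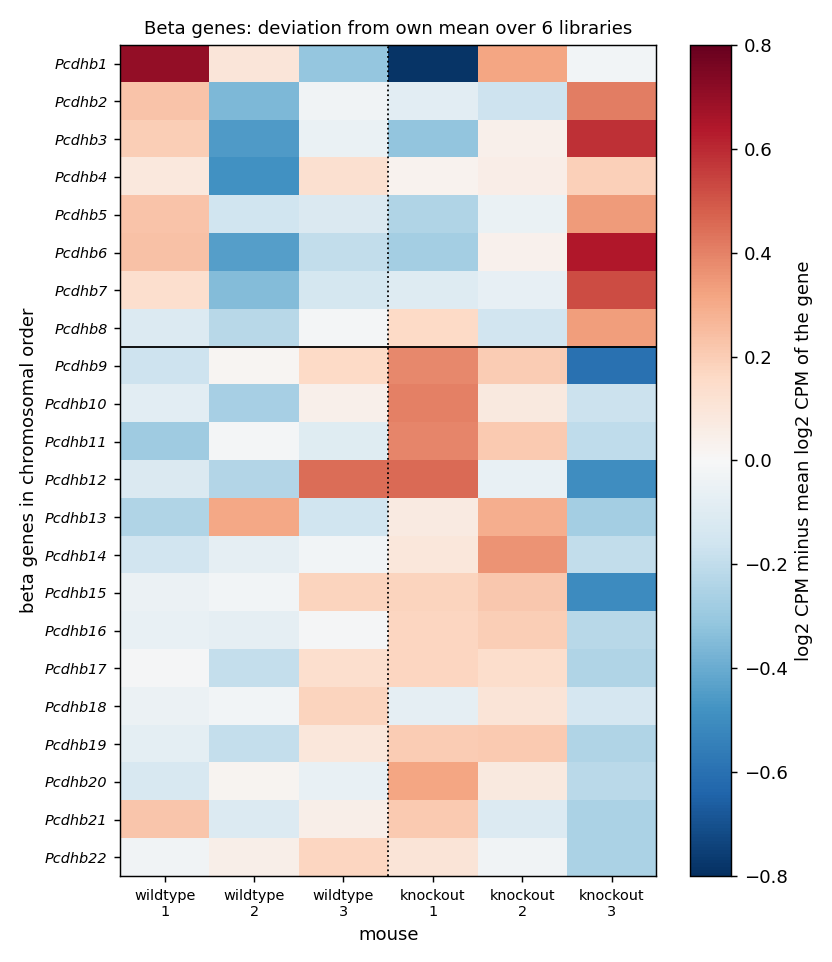
Deviation of each beta gene from its own mean over the 6 libraries, as log2 CPM, with genes in chromosome order from top to bottom and 1 column per library, red above and blue below the mean. The line between Pcdhb8 and Pcdhb9 marks a split chosen after the values were seen, and knockout 3 is high on one side of it and low on the other.

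Taken within a library, where no scaling between libraries enters, the share of beta reads in Pcdhb2 to Pcdhb8 ran as follows. It was 30.8% (95% Wilson interval 29.8 to 31.9), 23.3% (22.4 to 24.3) and 25.2% (24.1 to 26.3) in wildtype 1, 2 and 3. In knockout 1, 2 and 3 it was 22.6% (21.6 to 23.6), 24.7% (23.6 to 25.9) and 38.5% (37.6 to 39.5). The intervals cover counting error only, which is far smaller than the distance between knockout 3 and the others. Both genotypes held a library apart from its group, wildtype 1 and knockout 3. Those 2 are among the 3 deepest libraries, and wildtype 2, also deep, had a share near the lowest. In CPM the first stretch summed to 56.3, 39.4 and 47.6 in wildtype and to 45.3, 49.0 and 69.3 in knockout libraries. The second summed to 126, 129 and 141 CPM in wildtype and to 155, 148 and 110 CPM in knockout libraries. The opposite movements in knockout 3 cancelled only in part. Its beta total was 180.0 CPM, against 200.5 and 198.0 CPM in knockout 1 and 2.

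**Figure D4:**
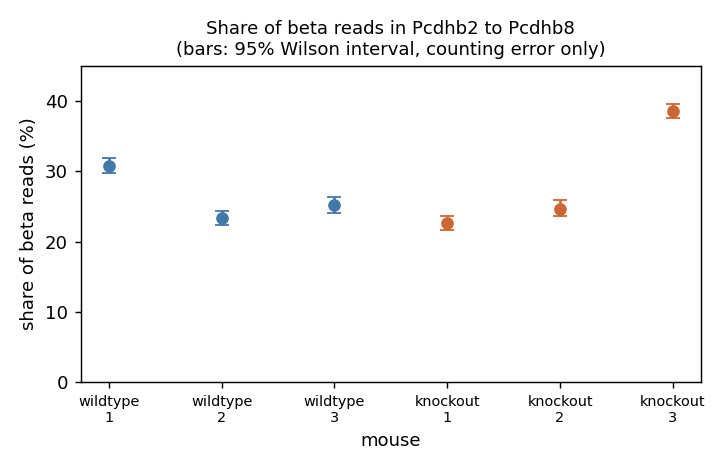
Share of a library's beta reads that fell in Pcdhb2 to Pcdhb8, in percent, for each library, with 95% Wilson intervals for counting error. Knockout 3 lies at 38.5% and wildtype 1 at 30.8%, with the other 4 libraries between 22.6% and 25.2%.

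The movement did not extend to the genes beside the clusters in the same size. Over 11 tested protein-coding genes that flank or lie between the clusters, chosen after the pattern was seen, knockout 3 deviated by −0.20 to 0.15 on the log2 scale with a median of 0.01. Wildtype 2 deviated by −0.14 to 0.39, with a median of 0.02. The widest spread was that of Dnd1, from −0.82 in knockout 1 to 0.67 in wildtype 1, and knockout 3 was at 0.07. Among the 13 marker lists of cell types, knockout 3 had the highest sum for neurons (7400 CPM against 6630 to 7270), interneurons (738 against 711 to 737) and meninges (441 against 247 to 426). It had the lowest for CA1 (567 CPM against 591 to 651) and oligodendrocyte precursors (106 against 110 to 119), and shared the lowest with knockout 1 for microglia (277 CPM). Their part in the pattern was not tested. Over all libraries, knockout 3 included, the beta genes were more variable between mice than most genes. Their median biological coefficient of variation was 0.148 against 0.0835 over all genes tested, and 18 of 22 had a gene-level dispersion above the trend for their abundance, against 22.7% of all genes. The alpha and gamma rows had coefficients of 0.0453 and 0.0484. The part of knockout 3 in the beta values was not tested, and genes that move together along the array are not separate observations.

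No clustered protocadherin passed the test between genotypes. In edgeR's quasi-likelihood test with Benjamini-Hochberg adjustment over the 16432 genes tested, 0 of the 24 members were called at an adjusted p of 0.05, where the share called over all genes was 0%. DESeq2 called 0 members too, against 0.998% of all genes. At an unadjusted p of 0.05, 0 members passed in edgeR against 10.6% of all genes, and 0 passed in DESeq2 against 8.33% of all genes. The wildtype and knockout libraries overlapped for all 24 members, whereas they did not overlap for 16.6% of all genes. Every 95% interval of a member's log2 fold change spanned 0. The lowest adjusted p among the members was 0.591 in edgeR and 0.668 in DESeq2, which gave none for Pcdhb1. Log2 fold changes ran from −0.34 for Pcdhb1 to 0.31 for Pcdhb6, and 17 of 24 were positive, against 50% of all genes. Their median was 0.08, beside 0.00 over all genes, and it was 0.03 without wildtype 2, 0.03 without knockout 1, 0.04 without knockout 2, 0.12 without wildtype 3 and 0.12 without knockout 3. The beta genes alone had a median of 0.11, with 16 of 22 positive.

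The alpha and gamma rows were the most tightly bounded. The log2 fold change of the alpha row was 0.04 (SE 0.039, 95% interval −0.05 to 0.13, edgeR adjusted p = 0.741), and the group means were 194.3 ± 4.0 and 199.7 ± 4.1 CPM (SD, n = 3 each). That of the gamma row was −0.05 (SE 0.043, 95% interval −0.15 to 0.05, edgeR adjusted p = 0.702), with means of 671 ± 26 CPM in wildtype and 648 ± 22 CPM in knockout libraries. Since the exons behind these rows are not known, they give no value for any 1 alpha or gamma promoter. The beta genes with the smallest p were Pcdhb11, Pcdhb8 and Pcdhb7. Pcdhb11 stood at 5.23, 6.29 and 5.96 CPM in wildtype and 8.34, 7.37 and 5.52 CPM in knockout libraries (log2 fold change 0.27, SE 0.159, edgeR adjusted p = 0.591). Pcdhb8 stood at 2.94, 2.72 and 3.14 CPM in wildtype and 3.55, 2.85 and 3.997 CPM in knockout libraries (0.25, SE 0.157, edgeR adjusted p = 0.607). The log2 fold change of Pcdhb7 was 0.26 (SE 0.182, edgeR adjusted p = 0.638). In Pcdhb11 only knockout 3 lay inside the wildtype range or below it, and in Pcdhb8 only knockout 2 did.

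**Figure D5:**
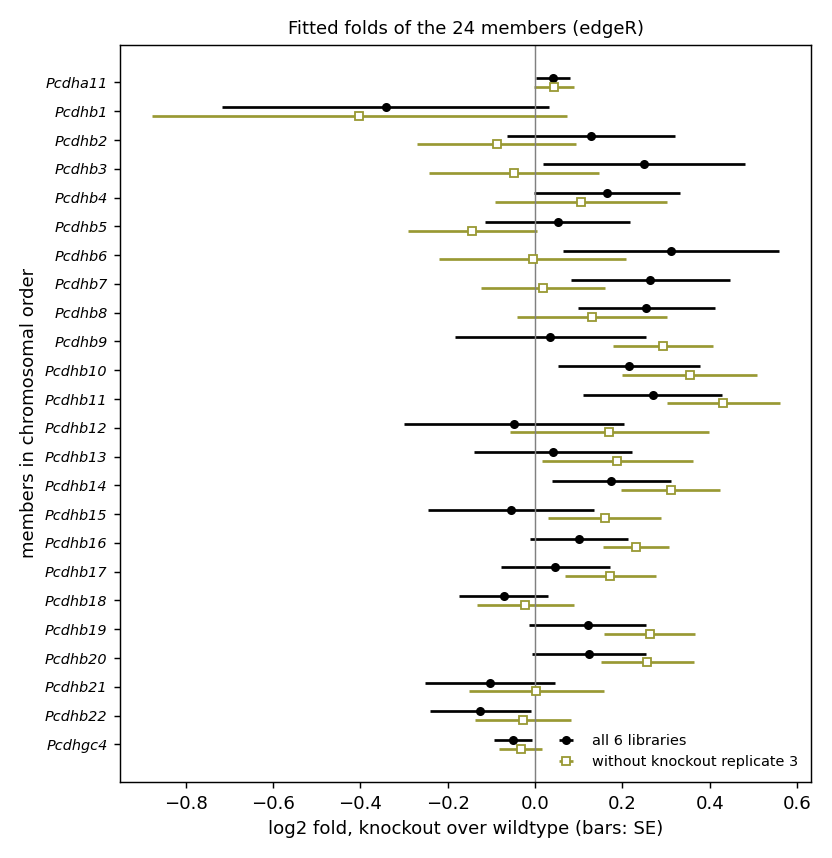
Log2 fold change, knockout over wildtype, of each of the 24 rows from edgeR, with bars for 1 SE, over all 6 libraries (filled points) and without knockout 3 (open squares). The values of Pcdhb2 to Pcdhb8 move down and those of Pcdhb9 to Pcdhb22 up when knockout 3 is left out.

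The beta fold changes moved with single libraries, knockout 3 and wildtype 2 among them. With all 6 libraries, 7 of 7 genes from Pcdhb2 to Pcdhb8 were positive, with a median log2 fold change of 0.25. Without knockout 3, 3 were positive and 4 negative, and the median was −0.005. Without wildtype 2, the lowest library for 6 of these genes, 4 were positive and 3 negative, and the median was 0.09. In Pcdhb9 to Pcdhb22, 9 of 14 were positive with a median of 0.04, and without knockout 3, 12 of 14 were positive with a median of 0.21. Their median was −0.02 without knockout 1 and −0.01 without knockout 2, with 6 of 14 positive in each. Without knockout 3, 6 of the 22 beta genes had an unadjusted edgeR p under 0.05, all higher in knockout, against 9.22% of all genes in that fit. That library had been seen to be the lowest for most of these genes, so leaving it out raises them by construction and the count is a description only. In the fits that left out another library, at most 1 beta gene was under 0.05 (Pcdhb8 without knockout 2). The 6 genes and their log2 fold changes without knockout 3 were Pcdhb9 (0.29), Pcdhb11 (0.43), Pcdhb14 (0.31), Pcdhb16 (0.23), Pcdhb19 (0.26) and Pcdhb20 (0.26). The summed beta level without knockout 3 gave a log2 ratio of 0.145, against 0.098 with all 6 libraries, and knockout 1 and 2 then lay above the 3 wildtype libraries. The ratio was 0.052 without wildtype 2, 0.069 without knockout 1 and 0.078 without knockout 2. None of the 6 genes passed adjustment, the lowest edgeR adjusted p being 0.439 for Pcdhb11. The GC content of the members' exons had a median of 46.5%, below the 49.8% of all genes tested, and with a fit that corrects each library for GC content and length the median log2 fold change of the members was 0.04.

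Sites for the seeds of the deleted microRNAs were counted in the longest 3′ UTR that M21 gives each gene, on the transcript strand, as 7-base matches to GCACTTT (miR-17-5p and miR-20a-5p), GCACCTT (miR-18a-5p), TTTGCAC (miR-19a-3p and miR-19b-3p) and GTGCAAT (miR-92a-3p). All 14 alpha models share one 3′ UTR, which holds 2 matches to GCACTTT and 1 to TTTGCAC. The 21 gamma models hold 0 matches to all 4. Among the beta genes 7 of 22 (31.8%) hold at least 1 match, close to the 6086 of 19779 protein-coding genes (30.8%). Those 7 are Pcdhb4, Pcdhb8, Pcdhb11, Pcdhb14, Pcdhb17, Pcdhb19 and Pcdhb22. Their median log2 fold change was 0.16 (−0.12 to 0.27, 6 of 7 positive) and that of the other 15 was 0.05 (−0.34 to 0.31, 10 of 15 positive), and the ranges overlapped. The alpha row, with sites, and the gamma row, with none, both had intervals that span 0. A match is a string of letters and not a shown target site.

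The genes that act on protocadherin promoters showed few differences. Of 21 genes for promoter choice and silencing, edgeR called 0 and DESeq2 called 1, against 0% and 0.998% of all genes, with 7 log2 fold changes positive, 14 negative and a median of −0.04. The called gene was Tet1, an enzyme that oxidises methylated cytosine in DNA. It stood at 26.3, 24.6 and 25.0 CPM in wildtype and at 20.1, 19.6 and 19.6 CPM in knockout libraries, with no overlap. Its log2 fold change was −0.35 (SE 0.058), with an adjusted p of 0.118 in edgeR and 0.00564 in DESeq2. At an unadjusted edgeR p of 0.05, 3 genes were lower and 0 higher, against 5.58% and 5.05% of all genes. The other two were Atf7ip, a partner of the histone methyltransferase Setdb1 (−0.16, SE 0.048), and Tet3, a relative of Tet1 (−0.15, SE 0.048). Smchd1, a repressor of the clusters, was at 55.6 ± 4.4 CPM in wildtype and 58.9 ± 2.2 CPM in knockout libraries (log2 fold change 0.09, SE 0.063).

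Of 15 cohesin and CTCF genes 14 could be tested, and edgeR and DESeq2 called 0, against 0% and 0.998% of all genes. At an unadjusted edgeR p of 0.05, 1 was higher (Stag2, a cohesin subunit, log2 fold change 0.13, SE 0.051) and 0 lower, against 5.05% and 5.58% of all genes. Ctcf, which binds the promoters and the enhancers, stood at 83.1 ± 1.5 CPM in wildtype and 85.8 ± 0.78 CPM in knockout libraries (log2 fold change 0.05, SE 0.04). Rad21, the cohesin subunit that closes the ring, stood at 125 ± 3.4 and 131 ± 2.7 CPM (0.07, SE 0.042), and Mau2, a loader of cohesin, had 0.12 (SE 0.071). The list had 10 of 14 positive and a median of 0.05. Signalling partners were 31 genes, such as the kinases and actin regulators that act below the receptors. Of these, edgeR and DESeq2 called 0, against 0% and 0.998% of all genes, 21 were positive and the median was 0.04. At an unadjusted edgeR p of 0.05, 5 were higher and 1 lower, against 5.05% and 5.58% of all genes, and 10 of 31 did not overlap between genotypes, against 16.6%. Those of smallest p were Abi1 (log2 fold change 0.17, SE 0.049) and Rac1 (0.12, SE 0.037), of the WAVE actin pathway, and Marcks (0.18, SE 0.051), a membrane and actin binding protein.

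Solitary protocadherins and large cadherins, which lie outside the clusters and use no promoter choice, were a comparison list of 21 genes, of which 20 could be tested. They leaned the other way from the beta genes, with 8 positive, 12 negative and a median log2 fold change of −0.05, a difference that was not tested. At an unadjusted edgeR p of 0.05, 1 was higher and 6 lower, against 5.05% and 5.58% of all genes, and 7 of 20 did not overlap between genotypes, against 16.6%. edgeR called 0 and DESeq2, which called 0.998% of all genes, called 1, Pcdh20, at 191 ± 6.7 CPM in wildtype and 217 ± 8.1 CPM in knockout libraries (log2 fold change 0.19, SE 0.046, DESeq2 adjusted p = 0.0392). Pcdh1 stood at 497 ± 21 and 452 ± 4.9 CPM (−0.14), and Celsr2, an atypical cadherin of planar polarity, had −0.16.

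The marker lists of some cell types differed in level between genotypes without overlap, in both directions, and others overlapped. edgeR called 0 markers in each list, as it called 0% of all genes. DESeq2, which called 0.998% of all genes, called 1 dentate granule cell, 2 astrocyte and 3 meningeal markers, all higher in knockout. It called 0 in the other marker lists. The sums were not tested, and a sum weighs its most abundant markers most. Taken singly, 16.6% of all genes did not overlap between genotypes. The 7 neuron markers summed to 6630 to 7060 CPM in wildtype and 7240 to 7400 CPM in knockout libraries, without overlap, and 5 of 7 had positive fold changes. Rbfox3 (log2 fold change −0.135) and Tubb3 (−0.104) were negative. The 5 dentate granule cell markers summed to 451 to 493 and 520 to 564 CPM, with 4 of 5 positive. Among them Calb1 had group means of 126 CPM in wildtype and 173 CPM in knockout libraries. The 3 markers of CA1 pyramidal neurons went the other way, with sums of 604 to 651 and 567 to 598 CPM, no overlap and 0 of 3 positive. The 6 meningeal markers summed to 247 to 292 and 346 to 441 CPM, without overlap and with 6 of 6 positive. The most abundant of them, Ptgds, had group means of 174 and 267 CPM. Astrocyte sums overlapped, at 4890 to 5530 and 5340 to 5720 CPM, with 7 of 7 positive. Oligodendrocyte sums were 3230 to 3980 and 3080 to 3320 CPM, with 1 of 6 positive. The sums also overlapped for CA3 (278 to 311 and 290 to 297 CPM), interneurons (711 to 720 and 719 to 738 CPM) and oligodendrocyte precursors (110 to 117 and 106 to 119 CPM). They overlapped as well for microglia (284 to 306 and 277 to 295 CPM) and endothelium (135 to 149 and 126 to 138 CPM). Choroid plexus markers summed to 25.4 to 65.3 and 30.8 to 39.4 CPM, and serotonergic markers, of which 1 of 3 passed the filter on low counts, to at most 1.16 CPM. The beta sum, at 169 to 189 CPM in wildtype and 180 to 201 CPM in knockout libraries, overlapped between genotypes. The libraries with the highest and lowest beta sums were knockout 1 and wildtype 2. The part of these cell type levels in the protocadherin values was not tested.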

How the data were processed

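The values deposited by the authors are whole-number read counts for 37620 Ensembl genes, in a table for each mouse. The build was mm9 and the tools were STAR 2.3.0e, HTSeq, SAMtools, FastQC 0.10.1 and DESeq2, per the submitters' processing notes. The role of each, the annotation, the strand setting and the read length: not given in the sources used here. Reads of genes that overlap or lie antisense therefore cannot be separated. The last 5 rows of each file name no gene, held 38.0% to 40.3% of its total and were left out.

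Symbols, exons, 3′ UTRs and gene order came from GENCODE M21 (GRCm38), where 32897 identifiers matched. No gene coordinates are given because the reads were counted on mm9. Genotypes were compared with edgeR 4.0.16 (R 4.3.3): filterByExpr, TMM, quasi-likelihood F test on genotype, Benjamini-Hochberg over all genes at 0.05. The standard error is the absolute log2 fold change divided by the square root of F. CPM use TMM-scaled totals. DESeq2 1.42.0, limma 3.58.1, GC and length offsets, other filters and leaving out each library were alternatives. The test was run on simulated counts with 50 genes changed at each size. There edgeR called 26% of the 1.25-fold, 64% of the 1.5-fold and 86% of the 2-fold changes, so small changes were often missed. The changed genes were drawn at random from all genes, whose median biological coefficient of variation was 0.0835, against 0.148 for the beta genes. Recovery for genes as variable as the beta genes was not simulated apart. Of its 151 calls 15 were false, and of the 174 calls of DESeq2 33 were false.

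Members and lists were chosen with earlier results of these data known. Named genes are the alpha and gamma rows, the 3 highest and the lowest beta gene per kb, the 3 of smallest p, and up to 3 of smallest p per list with Ctcf, Smchd1 and Rad21. Other beta genes (Pcdhb20, Pcdhb14 and those of the pattern along the array among them) were named after their values were seen. Replicate numbers pair nothing, since each mouse came from a different litter. The edgeR and DESeq2 p-values weigh the difference between genotypes against the spread between mice.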

Additional observations from a re-analysis of the deposited data

Results flagged for a closer look

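The share of a library's reads placed at several sites, which no gene count uses, was higher in the knockout libraries than in the controls. It was 21.8% ± 0.71 of the file total in knockout and 20.7% ± 0.40 in wildtype libraries (SD, n = 3 each), with ranges of 21.2% to 22.6% and 20.2% to 20.9%. The exact two-sided permutation p was 0.1, the smallest that 3 against 3 can give. Such reads include those from sequences that related genes share, but the files do not say which genes they would belong to. Reads that overlap several genes made up 1.97% to 2.01% of gene and ambiguous reads in all 6 libraries. Groups of 3 are too small for the test of a library that stands apart, so the position of knockout 3 in the beta genes was not tested.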

How the results depend on the processing

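No alternative called a member, and the lowest adjusted p of a member in any setting was 0.439. Over all genes edgeR called 0. The count was 18 at an adjusted p of 0.10, 62 with no filter beyond 1 read, 164 in DESeq2 and 15 in the edgeR robust fit, and the cause was not tested. Leaving out 1 library gave 0 to 17 genes: 17 without knockout 3, 16 without wildtype 2, and 2 without wildtype 1 or without knockout 1. The replicate numbers pair nothing: the correlations of same-numbered deviations were −0.10, −0.02 and −0.15, and a replicate block gave 0 genes, 0 members and a median of 0.08. Of 24 members, 12 kept the sign of their log2 fold change in every setting and 12 changed it on leaving out a library. Pcdhb9 and Pcdhb13 also changed sign in limma-voom, to −0.10 and −0.02. The leave-one-out ranges were −0.088 to 0.28 for Pcdhb2, −0.048 to 0.43 for Pcdhb3, −0.012 to 0.27 for Pcdhb4, −0.14 to 0.19 for Pcdhb5, −0.005 to 0.52 for Pcdhb6 and −0.17 to 0.29 for Pcdhb9. They were −0.33 to 0.18 for Pcdhb12, −0.091 to 0.23 for Pcdhb13, −0.17 to 0.16 for Pcdhb15, −0.035 to 0.17 for Pcdhb17, −0.016 to 0.26 for Pcdhb20 and −0.24 to 0.003 for Pcdhb21. The summed level of the C-type genes, and the alpha and gamma sums without their most-read or shared-word members, were not run, because each of those clusters is 1 row. Depth limits Pcdhb1, with 8 to 28 reads a library.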
